A study of Gossypium herbaceum with 12 samples.

Results

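The leaves of RAHS-14, a drought-sensitive accession of the diploid cotton Gossypium herbaceum, were compared between plants kept short of water and plants irrigated daily. The comparison rests on 6 of the 12 arrays of the study, 3 from drought plants and 3 from irrigated plants, chosen by their labels alone. All plants were potted, month-old and unmodified, and each array was hybridized with leaf RNA of a separate plant. In the drought group water was withheld, with 1 watering in alternate weeks, until differences between the pots could be seen, so the plants represent an established pot drought and not a time course. The 3 arrays of irrigated plants of the tolerant accession Vagad helped to estimate the spread between plants, and the 3 arrays of Vagad under drought were not used. Each p-value therefore measures the spread between plants grown in pots of 1 experiment.

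Leaves that lose water close their stomata, accumulate osmolytes such as proline and raffinose, and make chaperones and late embryogenesis abundant proteins that protect other proteins and membranes. Much of this response is driven by the hormone abscisic acid and by the transcription factors that it controls. Phenylpropanoids and flavonoids, made from phenylalanine, serve as lignin precursors, pigments and antioxidants, while aquaporins of the plasma membrane and of the tonoplast carry water across the membranes of the cell.

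The Affymetrix Cotton Genome array holds 24029 probe sets other than its AFFX controls, and 12211 of them (50.8%) passed the filter on low signals and were tested. A probe set was called where limma's adjusted p was under 0.05 and the fold at least 2. In these leaves 971 probe sets were called (7.95% of those tested), of which 429 were higher (3.51%) and 542 lower (4.44%) under drought. Without the fold requirement the adjusted p alone was passed by 2344 probe sets that were higher and 2251 that were lower, together 37.6% of those tested. Over all tested probe sets the median absolute difference was 0.25 on the log2 scale and the median signed difference 0.01. A change of at least 4-fold was seen for 76 called probe sets that were higher and 104 that were lower, and of at least 16-fold for 6 and 7. The values of the 3 drought plants did not overlap with those of the 3 irrigated plants for 6642 probe sets (54.4%). In leaf RNA as a whole, fewer cells of a type and less RNA per cell cannot be told apart.

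**Figure D1:**
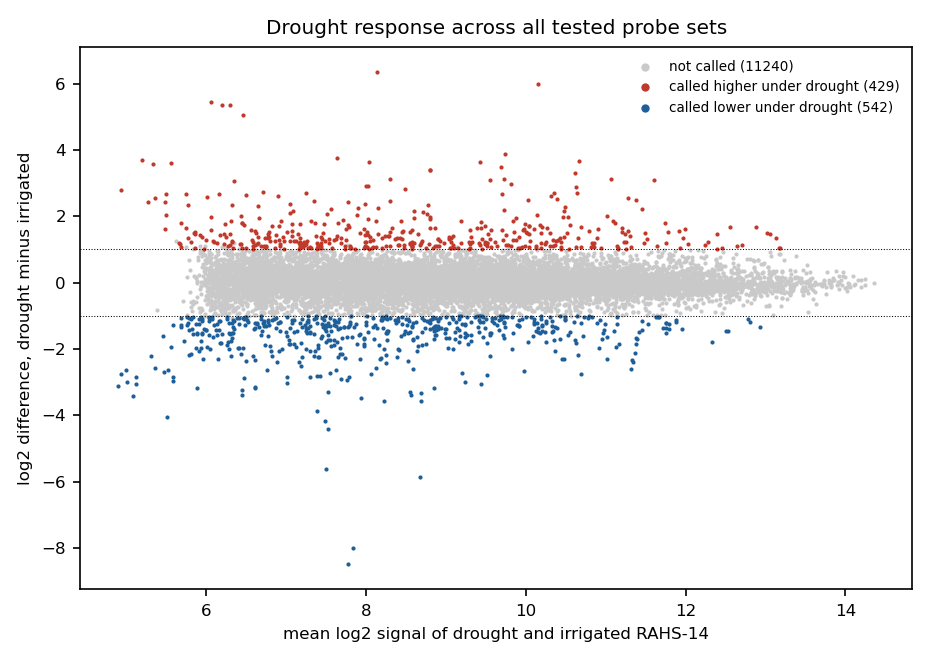
Mean log2 signal of each tested probe set over the 6 RAHS-14 plants (x axis) against its log2 difference, drought minus irrigated (y axis), with 1 point per probe set. The 429 probe sets called higher are red and the 542 called lower blue, and most points lie close to 0, where the median difference is 0.01.

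The 6 arrays were alike in their median signals. Their correlations were high, and higher within the drought and irrigated groups than between them. The ratio of 3' to 5' signal differed between the groups. Spearman correlations of signals over the probe sets, which do not replicate one another, were 0.967 to 0.971 within the RAHS-14 groups and 0.954 to 0.957 between them, and median signals were 71.1 to 74.2 in drought and 66.9 to 74.1 in irrigated plants. The mean log2 ratio of 3' to 5' signal over 6 pairs of control probe sets, a measure of RNA integrity and of labelling, was 1.33 to 1.75 on the drought arrays and 1.80 to 2.05 on the irrigated arrays. The groups did not overlap in it, and the part of this ratio in the results below was not tested. By single pair, the groups were separate for the Gossypium hirsutum ss1 and ubq11 controls and overlapped for the others. The Gossypium raimondii ubq11 pair alone ranged from -2.47 to 0.76 on the drought arrays. Of 12 leaf markers among the named probe sets only 5 passed the filter. The photosystem II D2 protein was called higher and chlorophyllide a oxygenase (CHLORINA 1) lower, the D1 protein, carbonate dehydratase and another chlorophyllide a oxygenase probe set were not called, and 2 chlorophyll-binding probe sets were at or near the floor in all 6 plants. Of 11 probe sets named for other tissues, 5 passed the filter, among them a fiber protein and phloem proteins, and both probe sets named ABNORMAL FLORAL ORGANS lay at or near the floor. The single marker of another tissue that was called was an embryo-specific protein, at 10.84, 10.79 and 10.70 in drought plants and 9.13, 9.02 and 9.38 in irrigated plants (3.03-fold).

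Names were available for a small part of the array. The study had listed 1712 probe sets because they differed between Vagad and RAHS-14 on these same arrays. Of these, 1189 carry a name counted as informative, from an Arabidopsis top hit or other description. The lists below were drawn by keyword from the descriptions of all 1712, so their directions are not independent evidence about the pathways. Among the 1372 listed probe sets that were tested, 136 (9.91%) were called higher and 134 (9.77%) lower. These shares, and the 3.51% higher and 4.44% lower of all tested probe sets, are the background for each list count below. A further 701 of the 971 called probe sets were not listed and carried no description. Calls with an informative name were 93 higher and 92 lower. Several probe sets of the same name, and those whose identifier ends in s_at or x_at, can measure the same or closely related transcripts and do not count as separate genes. Levels are log2 signals throughout and are compared between plants for 1 probe set at a time, since signals of different probe sets are not on a common scale. Signals under the floor of 10.1 (3.34 on the log2 scale) were raised to it.

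Proline synthesis stood among the largest rises. Delta-1-pyrroline-5-carboxylate synthase (P5CS) catalyses the rate-limiting step from glutamate to proline, and both of its probe sets were called. For the first (GraAffx.27366.1.S1_at) the log2 signal was 9.76, 9.71 and 10.12 in drought plants and 6.69, 6.83 and 6.72 in irrigated plants. Every drought plant was well above every irrigated plant, a difference of 3.12 ± 0.13 (SE), or 8.67-fold, at an adjusted p of 7.51e-07. The second P5CS2 probe set (GhiAffx.62451.1.S1_at) was at 12.60, 12.63 and 12.63 under drought and at 10.20, 10.12 and 10.11 with irrigation. Its 3 drought plants were almost identical, and the rise was 2.48 ± 0.07 (5.57-fold, adjusted p = 1.09e-07). In irrigated Vagad plants the means of the 2 probe sets were 6.40 and 10.22.

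Both probe sets for galactinol-sucrose galactosyltransferase, which makes raffinose, also rose, by less. One (Ghi.8192.2.S1_s_at) was at 9.70, 9.87 and 9.77 in drought plants and at 8.56, 8.48 and 8.77 in irrigated plants, a 2.26-fold difference (adjusted p = 0.000116). The other (GhiAffx.16092.1.A1_s_at) was at 10.79, 10.92 and 11.15 against 9.94, 10.13 and 9.72, or 2.03-fold, close to the fold required and below it without drought plant 3 (0.93 on the log2 scale) or irrigated plant 3 (0.92). No plant of the drought group fell into the irrigated range for either. Trehalose, another sugar osmolyte, had 6 tested probe sets, of which none was called, and their differences ran from -0.83 to -0.08. Of the 12 osmolyte probe sets tested, 4 were thus higher and 0 lower, with a list median of -0.12 against 0.01 for all tested probe sets.

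Of 7 tested dehydration proteins 2 were called, both higher, with a list median of 0.52. RESPONSIVE TO DESICCATION 26 (RD26), a NAC transcription factor that abscisic acid and dehydration induce in Arabidopsis, was at 9.74, 9.84 and 9.72 in drought plants and at 7.70, 7.56 and 7.69 in irrigated plants. The groups were clearly separate, and the rise was 2.12 ± 0.08 (4.35-fold, adjusted p = 4.33e-07). ERD4, named for an early response to dehydration, was at 10.08, 10.09 and 10.11 under drought and at 8.86, 8.88 and 8.92 with irrigation (2.31-fold, adjusted p = 6.4e-05). Here the 3 plants of each group lay very close together. A late embryogenesis abundant protein below the signal filter had mean levels of 5.99 under drought and 4.67 with irrigation, and another of the same name had 3.89 and 4.71. Among 12 probe sets of abscisic acid genes, RD26 was the 1 called, and the median difference of that list was 0.03.

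**Figure D2:**
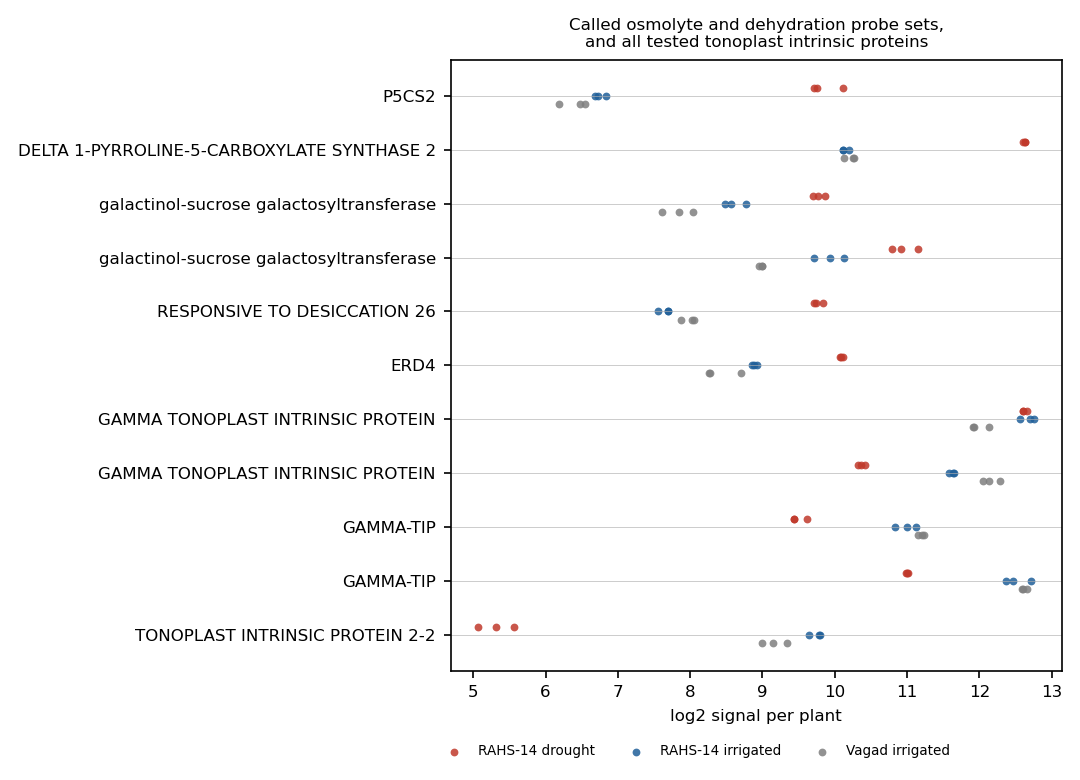
Log2 signal (x axis) of the called probe sets of proline, raffinose and dehydration genes and of all tested tonoplast water channels (y axis), with 1 point per plant in red for drought RAHS-14, blue for irrigated RAHS-14 and grey for irrigated Vagad. P5CS2 and RD26 are higher in all 3 drought plants, by 3.12, 2.48 and 2.12 on the log2 scale, while TIP2;2 is lower by 4.42.

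Among aquaporins, the calls were all falls of tonoplast forms. Tonoplast intrinsic proteins (TIPs) are water channels of the vacuole, and 4 of the 5 tested were lower under drought. TONOPLAST INTRINSIC PROTEIN 2;2 (Ghi.6473.1.S1_at) was at 5.57, 5.07 and 5.32 in drought plants, against 9.78, 9.79 and 9.65 in irrigated plants. It was low in all 3 drought plants, with a difference of -4.42 ± 0.13 (21.4-fold lower, adjusted p = 1.59e-07), the largest fall among named probe sets. Its levels in irrigated Vagad plants were 9.0, 9.14 and 9.34. The gamma-TIP probe sets fell to a lesser degree: one (Gra.2798.2.S1_s_at) was at 10.98, 11.00 and 11.01 under drought and at 12.71, 12.37 and 12.47 with irrigation (2.87-fold), and the others called were 2.81-fold and 2.39-fold lower. No drought plant reached the irrigated range for any of the 3. The fifth TIP probe set differed by -0.05 and was not called.

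Plasma membrane intrinsic proteins (PIPs), the water channels of the outer cell membrane, showed no call in either direction among 10 tested probe sets. Their differences ran from -0.63 to 0.58, and the groups did not overlap for 7 of the 10, against 54.4% of all tested probe sets. A pair of small and basic intrinsic proteins differed by 0.67 and 0.79 and were not called. Over the whole family 0 of 18 tested probe sets were higher, also at limma's unadjusted p under 0.05 with the fold, and 4 (22.2%) were lower, with a median of -0.10. The difference between TIPs and PIPs as groups was not tested.

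The general phenylpropanoid pathway was raised at several of its steps, with 10 of 21 tested probe sets higher (47.6%), 0 lower and a median of 0.62. Phenylalanine ammonia-lyase (PAL), the entry enzyme, was called in 3 of 4 probe sets, and the other differed by 0.03. The most changed of these (Ghi.4039.1.A1_s_at) was at 7.17, 7.38 and 6.71 in drought plants and at 4.99, 4.42 and 3.82 in irrigated plants. Its spread was wider than that of most genes named here, but the groups stayed apart by more than 1.5 on the log2 scale, at 6.40-fold (difference 2.68 ± 0.31, adjusted p = 0.000196). A PAL1 probe set (Gra.2682.2.S1_s_at) was at 10.82, 10.79 and 10.86 against 8.77, 8.47 and 8.65 (4.57-fold), and the third was 2.81-fold higher. Cinnamate 4-hydroxylase, the next enzyme, had 7 tested probe sets and none called, with differences of 0 to 0.62.

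Coumarate-CoA ligase, which activates the acids that PAL and the hydroxylase supply, rose in 3 of 4 probe sets. The clearest of them (Ghi.9697.2.S1_s_at) was at 9.72, 9.79 and 9.85 in drought plants and at 8.02, 7.45 and 7.97 in irrigated plants. It was higher in every drought plant, by 3.94-fold (adjusted p = 2.24e-05). The lignin-directed enzymes were called too: both cinnamoyl-CoA reductase probe sets were called, at 2.57-fold and 2.09-fold, as were 2 of 3 for cinnamyl-alcohol dehydrogenase, at 2.44-fold and 2.14-fold. The remaining probe set of that enzyme differed by -0.08.

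The flavonoid and anthocyanin list had the highest share of calls of all lists examined: 17 of 22 tested probe sets (77.3%) were higher and 0 lower, and the median difference was 1.50. The calls covered consecutive steps. All 6 tested probe sets of chalcone synthase, the committed enzyme, were higher, by 1.05 to 2.27. The most changed (Gra.207.1.A1_s_at) was at 11.60, 11.59 and 11.69 in drought plants and at 9.38, 9.34 and 9.35 in irrigated plants. Variation between plants was far smaller than the difference of 2.27 ± 0.07 (4.81-fold, adjusted p = 1.57e-07). Both chalcone isomerase probe sets were called, at 1.51 and 1.00, the latter at the limit of the fold required and below it without drought plant 3 (0.96), irrigated plant 2 (0.92) or irrigated Vagad plant 3 (0.99).

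Naringenin 3-dioxygenase, which hydroxylates flavanones to dihydroflavonols, changed most of the list. One probe set (Gra.2794.2.S1_s_at) was at 10.49, 10.36 and 10.63 under drought and at 6.94, 7.37 and 7.04 with irrigation. Each drought plant was above the irrigated plants by about 3 or more on the log2 scale, a rise of 3.38 ± 0.14 (10.4-fold, adjusted p = 5.69e-07). The other tested probe set of this name differed by 0.80 and was not called. Flavonoid 3'-monooxygenase rose in both probe sets, by 1.28 and 1.49, and so did dihydrokaempferol 4-reductase, by 1.57 and 1.74.

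The last enzyme measured in the anthocyanin branch was leucocyanidin oxygenase, which forms anthocyanidins. It was at 12.53, 12.57 and 12.61 in drought plants and at 10.31, 10.36 and 10.38 in irrigated plants. Again the groups were far apart, by 2.22 ± 0.07 (4.65-fold, adjusted p = 2.59e-07). TRANSPARENT TESTA 2, in Arabidopsis a MYB factor that activates genes of this branch in the seed coat, was at 9.46, 9.28 and 9.0 under drought and at 7.61, 7.65 and 7.79 with irrigation (2.95-fold, adjusted p = 5.26e-05). One of 2 probe sets for TRANSPARENT TESTA 12, a vacuolar flavonoid transporter in Arabidopsis, was called at 2.21-fold, and the other differed by 0.98. Isoflavone reductase, outside this chain, was not called in any of 3 probe sets (-0.24 to 0.08).

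Irrigated Vagad plants had flavonoid signals between those of the irrigated and the drought RAHS-14 plants for many of these probe sets. For the chalcone synthase probe set above they were at 11.17, 11.31 and 11.23, for naringenin 3-dioxygenase at 9.02, 9.21 and 9.38, and for leucocyanidin oxygenase at 11.50, 11.51 and 11.69. For TRANSPARENT TESTA 2, in contrast, they were at 7.75, 7.88 and 7.45, which overlapped with irrigated RAHS-14. These values stand beside the drought response as a description, because both comparisons share the irrigated RAHS-14 plants and the probe sets were listed for accession differences.

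**Figure D3:**
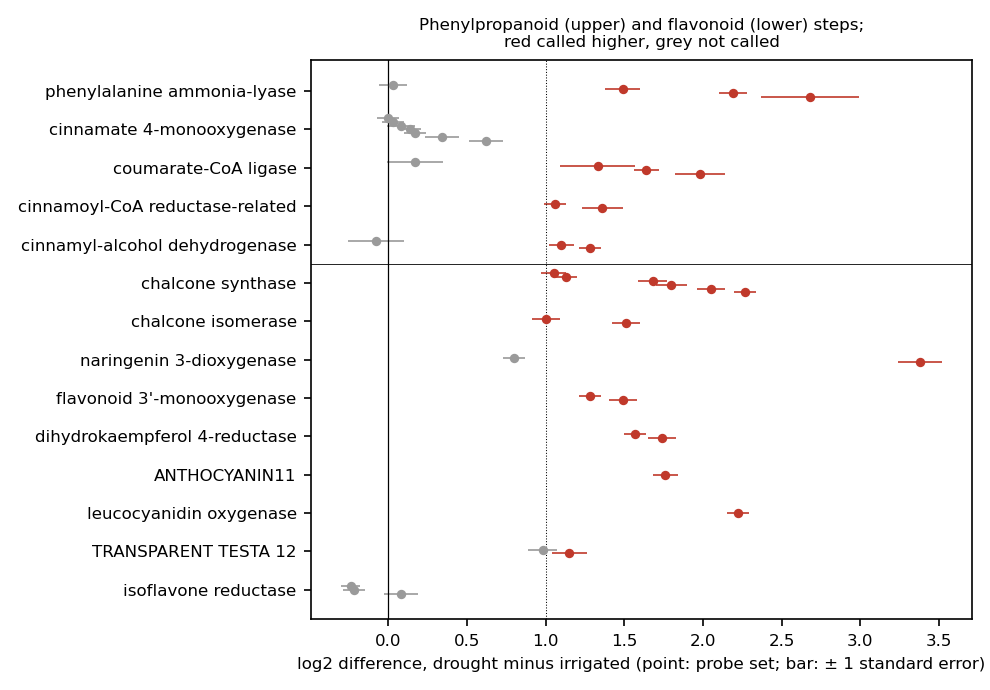
Log2 difference, drought minus irrigated RAHS-14 (x axis), for each tested probe set of the pathway steps (y axis) in the phenylpropanoid (upper) and flavonoid (lower) lists. Red points are called higher, grey points not called, and bars are ± 1 SE. All 6 chalcone synthase probe sets lie at 1.05 or higher, none of the 7 for cinnamate 4-hydroxylase passes 0.62, and 1 naringenin 3-dioxygenase probe set reaches 3.38.

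Heat shock proteins, chaperones that hold or refold damaged proteins, were higher in 10 of 29 tested probe sets (34.5%) and lower in 2, with a list median of 0.29. The most raised (GhiAffx.17865.1.S1_at) was at 9.79, 10.14 and 9.65 in drought plants and at 6.17, 6.25 and 6.21 in irrigated plants. That is a rise of 3.65 ± 0.16 (12.6-fold, adjusted p = 8.27e-07), with no plant between the groups. Another heat shock protein (Ghi.10640.1.S1_s_at) stood at 11.44, 11.44 and 11.45 under drought and at 8.10, 7.91 and 7.84 with irrigation (11.2-fold). The small heat shock proteins HSP17.4-CIII and a mitochondrial form were 7.54-fold and 5.48-fold higher. The mitochondrial form is not in the set of the 15 most raised named probe sets, some of which rose by less.

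ATHSFA2, a heat shock factor that in Arabidopsis activates such chaperone genes, moved in the same direction. Its signal was 9.32, 9.20 and 9.30 in drought plants and 7.17, 6.83 and 7.11 in irrigated plants. The difference was 2.24 ± 0.12 (4.72-fold, adjusted p = 2.13e-06), and the groups were separate. The 2 members that fell were a DNAJ protein, a co-chaperone, and calnexin, a chaperone of the endoplasmic reticulum. The DNAJ probe set was at 9.84, 9.93 and 9.82 under drought and at 12.16, 12.14 and 12.20 with irrigation (4.94-fold lower), and the remaining 4 DnaJ probe sets differed by -0.61 to 0.29. Calnexin was 2.21-fold lower. The 3 probe sets named HSP81-2, an HSP90 form, ranged from -0.26 to 0.30 and were not called.

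Among named genes the largest rises were of a glucose-6-phosphate transporter and a senescence-associated protein. The transporter (GhiAffx.6053.1.S1_s_at), of a family that carries sugar phosphate across the plastid envelope, was at 9.23, 8.77 and 8.92 in drought plants. In irrigated plants it was at 3.34, 3.96 and 3.58, the first of which is the floor. The signal was thus near the limit of measurement with irrigation and well above it under drought, a difference of 5.35 ± 0.26 (40.7-fold, adjusted p = 1.46e-06). The senescence-associated protein (Ghi.710.1.S1_s_at) was at 8.81, 8.79 and 8.99 under drought and at 3.34, 3.90 and 3.34 with irrigation, where 2 plants lay at the floor (40.4-fold, adjusted p = 2.27e-07). Irrigated Vagad plants, at 6.25, 6.71 and 6.56, were above irrigated RAHS-14 for this gene. Both folds depend on how low signals are treated: with an offset of 16 in place of the floor the differences were 4.27 for the transporter and 4.25 for the senescence-associated protein. The latter was the 1 called member of 6 in the senescence list, whose median was 0.16.

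Other large rises included a phosphatase, at 12.49, 12.48 and 12.51 in drought plants and 8.89, 8.75 and 8.85 in irrigated plants. Its 3.66 ± 0.07 difference (12.7-fold) had the smallest adjusted p among the named probe sets that rose, 8.39e-09. A mannose-binding lectin, of a family of carbohydrate-binding proteins, was 5.65-fold higher. For the lectin, irrigated Vagad plants had a mean of 11.13, near the 11.26, 11.37 and 11.20 of RAHS-14 under drought.

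**Figure D4:**
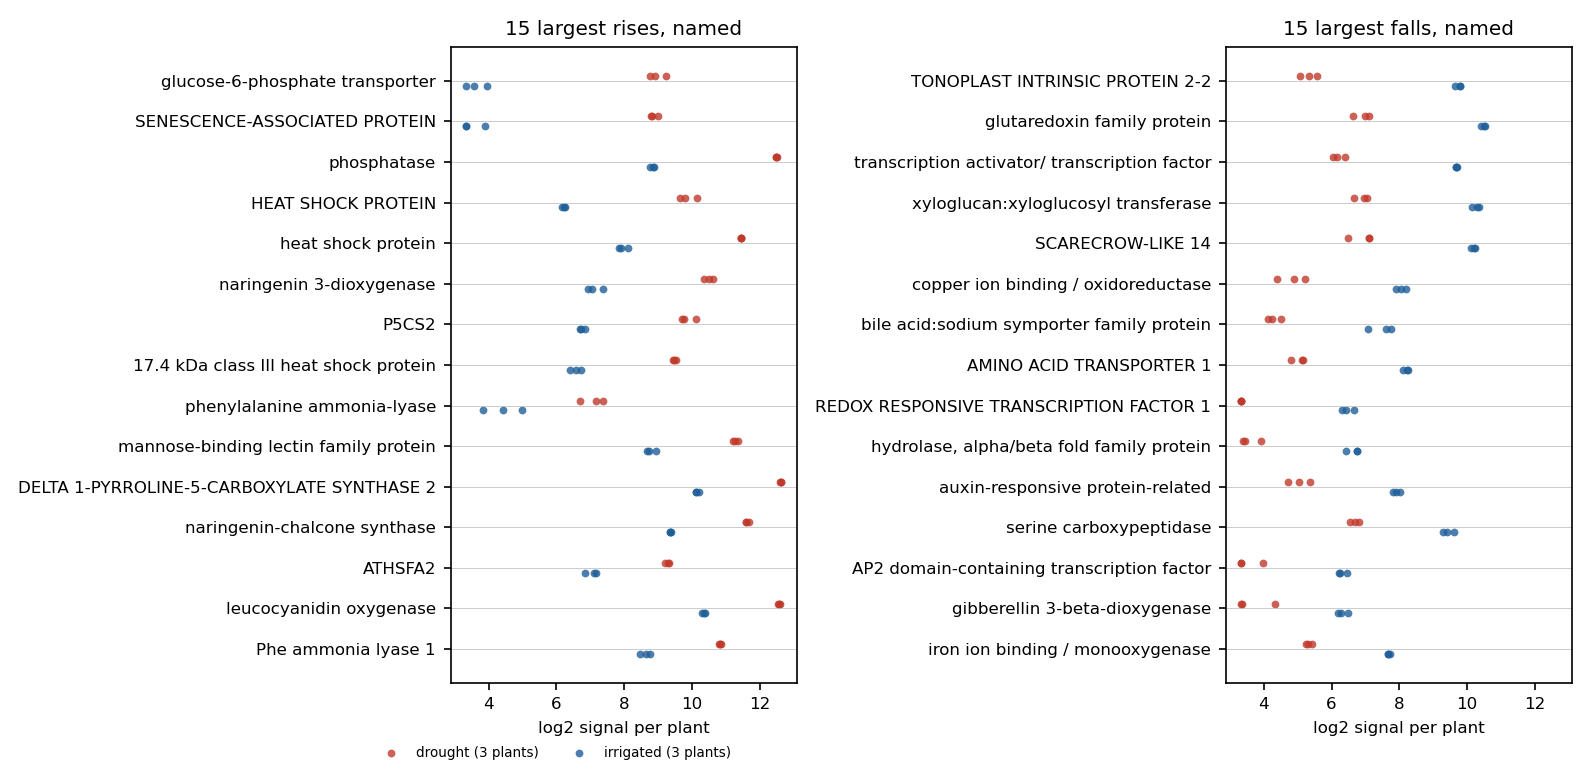
Log2 signal (x axis) of the 15 most raised and the 15 most lowered probe sets whose name was counted as informative (y axis), with 1 point per RAHS-14 plant, red for drought and blue for irrigated. A mitochondrial small heat shock protein with a larger rise than some of those shown is not in this set. In every line of the plot the 3 drought plants lie to 1 side of the 3 irrigated plants, which the rule that chose these probe sets required, and some points lie on the floor of 3.34.

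Cell wall genes were mostly lower among those called: 10 of 50 tested probe sets fell (20%) and 1 rose (2%), with a median of -0.19. A xyloglucan:xyloglucosyl transferase, an enzyme that cuts and rejoins xyloglucan in growing walls, was at 6.95, 6.65 and 7.03 in drought plants and at 10.14, 10.35 and 10.30 in irrigated plants. This was 10.5-fold lower (-3.39 ± 0.12, adjusted p = 3.61e-07) in all 3 drought plants, and irrigated Vagad plants were also low, at 7.66, 7.73 and 7.96. All 3 pectate lyase probe sets, which encode pectin-degrading enzymes, fell, by 1.36 to 2.33 on the log2 scale. The most lowered was at 10.12, 10.21 and 10.17 under drought and at 12.52, 12.58 and 12.38 with irrigation.

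The 3 EXORDIUM LIKE probe sets, named after an Arabidopsis gene that promotes growth, also fell, to between -1.65 and -1.20. Of 11 beta-galactosidase probe sets 2 were called lower and the remaining 9 ran from -0.99 to 0.12. The expansin ATEXPA8, of a family of wall-loosening proteins, was the exception that rose. It was at 10.73, 10.77 and 10.78 in drought plants and at 9.34, 9.10 and 9.28 in irrigated plants (2.87-fold higher), whereas 6 more expansin probe sets lay between -0.93 and 0.48. Pectinesterases and cellulose synthases, with 5 probe sets each, had no calls, at -0.53 to 0.51 and -0.25 to 0.48.

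Of 14 tested probe sets for asparagine and nitrogen metabolism 4 were lower and 1 higher, with a median of 0.04. Nitrate reductase, the first enzyme of nitrate assimilation, was at 6.55, 7.12 and 6.63 in drought plants and at 9.02, 9.09 and 9.11 in irrigated plants. The fall was -2.31 ± 0.16 (4.95-fold, adjusted p = 9.39e-06) and no drought plant came near the irrigated ones. A nitrate transporter (2.27-fold) and 2 ammonium transporters (2.76-fold and 2.04-fold) were also lower. The last, AMMONIUM TRANSPORTER 1;1, stood at -0.94 without drought plant 1 or without irrigated plant 2, under the 2-fold limit. Another pair of nitrate transporters differed by -0.76 and, for NTP2, by 0.79 and were not called. One of 5 asparagine synthase probe sets was called higher, at 11.76, 11.68 and 11.59 against 10.52, 10.62 and 10.75 (2.07-fold, and just under 2-fold without irrigated plant 1), and the others ran from -0.16 to 0.31. Both asparaginase probe sets were not called (0.14 and 0.17).

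Amino acid transporters fell in 4 of 9 tested probe sets and rose in none. AMINO ACID TRANSPORTER 1 was at 5.17, 5.14 and 4.80 in drought plants and at 8.10, 8.22 and 8.24 in irrigated plants. It was 8.88-fold lower (-3.15 ± 0.11, adjusted p = 3.29e-07), with the groups far apart. The 5 that were not called were all below 0, at -0.94 to -0.21, and for all 9 the groups did not overlap, as for 54.4% of all tested probe sets. In the wider list of transporters 13 of 55 were lower (23.6%) and 3 higher (5.45%). Those that fell included a bile acid:sodium symporter family member, at 4.25, 4.13 and 4.50 against 7.74, 7.08 and 7.60, and a MATE efflux protein, 2.90-fold lower. Other tested MATE efflux probe sets differed by 0.41 and -0.05 and were not called. Besides the glucose-6-phosphate transporter, a calcium:cation antiporter rose, by 2.19-fold.

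Auxin genes were called in 1 direction. Of 17 tested auxin probe sets 4 were lower (23.5%) and 0 higher, with a median of -0.31. Of all tested probe sets that the study had listed, 9.77% were lower. An auxin-responsive protein was at 5.37, 5.04 and 4.70 in drought plants and at 7.81, 8.02 and 7.90 in irrigated plants (7.32-fold lower), and an auxin efflux carrier, which moves the hormone between cells, was 4.77-fold lower. Gibberellin 3-beta-dioxygenase, which makes active gibberellin, was at 3.34, 3.35 and 4.32 under drought, the first at the floor. With irrigation it was at 6.18, 6.49 and 6.28, so that the difference of -2.65 ± 0.28 (adjusted p = 0.000135) is limited by the floor. The keyword list for ethylene had 1 rise and 1 fall among 8. Aminocyclopropane-1-carboxylate oxidase, which forms ethylene, was 2.41-fold lower. EGY3, which was listed by the word ethylene in its full name only, was 4.15-fold higher. Of 5 jasmonate probe sets a lipoxygenase, an enzyme of jasmonate synthesis, was 2.16-fold higher.

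The AP2/ERF and WRKY families of transcription factors had falls and no rises. Of 13 AP2/ERF probe sets 4 were lower (30.8%), and the median of -0.65 was the lowest of all lists. REDOX RESPONSIVE TRANSCRIPTION FACTOR 1 was at the floor of 3.34 in all 3 drought plants and at 6.41, 6.31 and 6.67 in irrigated plants, so it was at least 8.70-fold lower. An AP2 domain factor (GhiAffx.7865.1.S1_at) was at 3.34, 3.34 and 3.97 against 6.46, 6.24 and 6.22. In both cases most or all drought plants gave no signal above the floor. Of 12 WRKY factors, regulators known from defence, 3 were lower (25%). WRKY40 was 3.20-fold, WRKY33 2.16-fold and WRKY17 2.02-fold lower, the last just under 2-fold without drought plant 1 or irrigated plant 2. WRKY40 was at 7.90, 8.19 and 8.38 in drought plants and at 9.76, 9.96 and 9.79 in irrigated plants.

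The MYB list had 2 rises, TRANSPARENT TESTA 2 and another MYB domain protein (2.88-fold), and 1 fall (3.12-fold) among 14, and the 8 bHLH probe sets had no call, or 1 fall without drought plant 2, irrigated plant 1 or irrigated plant 2. A transcription activator (GhiAffx.58305.1.S1_s_at) was at 6.40, 6.15 and 6.05 under drought and at 9.70, 9.67 and 9.66 with irrigation (11.1-fold lower), and SCARECROW-LIKE 14, of the GRAS family of regulators, was at 7.09, 7.11 and 6.49 against 10.12, 10.24 and 10.20 (9.76-fold lower). No drought plant came within 2 on the log2 scale of an irrigated plant for either.

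Redox enzymes showed 1 call among 22 tested probe sets, and their median was 0.20. A second fall was called without irrigated plant 1, and a rise without irrigated plant 1 or 2. The call was of a glutaredoxin, a small thiol oxidoreductase, at 6.62, 7.10 and 7.0 in drought plants and at 10.54, 10.41 and 10.49 in irrigated plants. It was 11.9-fold lower (-3.58 ± 0.12, adjusted p = 2.73e-07). Other tested glutaredoxin probe sets differed the other way, by 0.50 and 0.49, and were not called. Photosynthesis and chlorophyll genes had 3 rises and 1 fall among 15. The D2 protein of photosystem II was at 8.35, 8.96 and 8.53 under drought and at 7.40, 7.51 and 7.28 with irrigation, a difference of 1.21 ± 0.32 (adjusted p = 0.017), and limma's adjusted p was 0.0613 without drought plant 2 and 0.0544 without irrigated plant 3. CHLORINA 1, or chlorophyllide a oxygenase, which makes chlorophyll b, was at 5.37, 5.46 and 5.54 against 6.71, 6.70 and 6.79 (2.42-fold lower), and a second probe set of this enzyme was not called, with means of 6.10 and 6.35.

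The remaining lists were divided or little changed. Lipid metabolism had 3 rises (8.82%) and 4 falls (11.8%) among 34, near the 9.91% and 9.77% of all tested probe sets that the study had listed. In it a fatty acyl-CoA reductase, an enzyme of wax synthesis, was 2.41-fold higher and an omega-3 fatty acid desaturase 2.02-fold lower. The keyword list of kinases and phosphatases had 3 rises and 4 falls among 57. Its 3 rises were of kinases, and the strongly raised phosphatase described above is not a member of it. Ubiquitin ligases and F-box proteins had 1 and 2 among 26, with 2 rises without drought plant 1 or irrigated plant 1. Of 17 defence probe sets 3 rose and 1 fell, and the latter, a disease resistance-responsive protein, changed most, from 12.39, 12.41 and 12.47 with irrigation to 10.32, 10.34 and 10.28 under drought. Another probe set of the same name was 2.04-fold higher. The other rises were of a related disease resistance-responsive protein (2.06-fold) and a defense-related protein (2.54-fold). None of 7 starch and sucrose probe sets and none of 12 for ribosome and translation was called by limma, also at an unadjusted p under 0.05 with the fold, and their medians were 0.42 and 0.17.

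**Figure D5:**
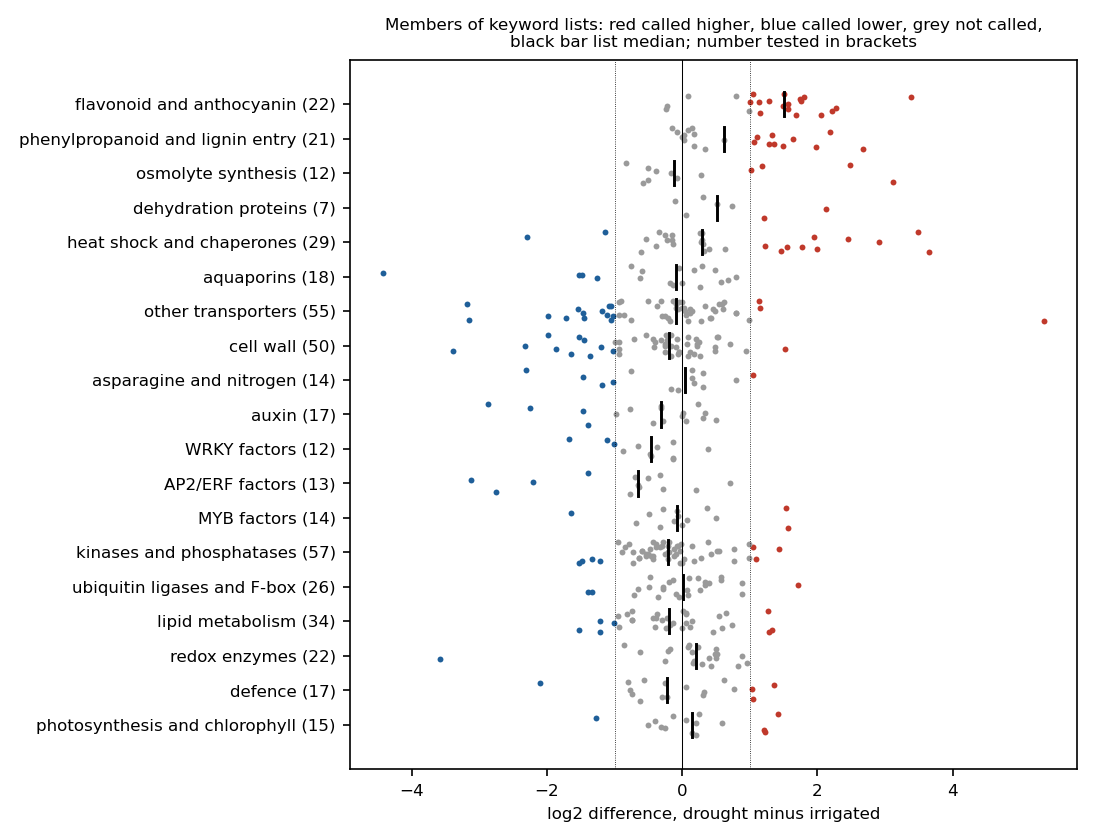
Log2 difference, drought minus irrigated RAHS-14 (x axis), of each tested probe set in the main gene lists (y axis), with red points called higher, blue points called lower and a black bar at the median of each list. The flavonoid list has its median at 1.50 with 17 of 22 members called higher, and the AP2/ERF list has the lowest median, at -0.65.

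The probe sets with the most extreme changes of all had no informative name. Ghi.6528.1.S1_at, whose transcript is described as unknown, was at 3.55, 3.34 and 3.67 in drought plants and at 11.98, 12.12 and 11.96 in irrigated plants. From a strong signal it dropped to the floor or just above it, a difference of -8.50 ± 0.11 (362-fold, adjusted p = 5.83e-10). Ghi.6546.1.S1_s_at behaved alike, at 3.87, 3.94 and 3.70 against 11.85, 11.87 and 11.80 (257-fold lower). Ghi.10795.1.S1_s_at and Ghi.6472.1.A1_s_at were 58.1-fold and 49.7-fold lower. Mean levels in irrigated Vagad plants were 10.67, 10.27, 10.94 and 9.13 for the 4 in this order.

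Among the rises, Ghi.482.1.A1_s_at was at 11.40, 11.31 and 11.25 under drought and at 5.06, 4.48 and 5.34 with irrigation (82.3-fold, adjusted p = 1.29e-07). Ghi.2233.1.S1_at was at 13.14, 13.12 and 13.16 against 6.83, 7.11 and 7.55 (63.1-fold). Ghi.585.1.S1_s_at lay at the floor in all 3 irrigated plants and at 8.72, 8.66 and 8.98 in drought plants, so it was at least 43.5-fold higher. The accessions differed in these when irrigated: Vagad plants had means of 13.13 for the first and 10.63 for the third, both above RAHS-14 under drought, but 5.95 for the second.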

How the data were processed

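The intensity values analysed here are linear signals that the authors made with MAS5, per the file headers, and deposited in 1 table for all arrays. The headers give no version. The methods also name filtered RMA values, which are not used here. Groups were taken from the array titles. The 9 arrays outside drought-treated Vagad were brought to 1 common distribution by quantile normalization. A floor of 10.1, the median of the arrays' 20th percentiles, replaced all lower signals before conversion to log2. Probe sets above the array median on at least 3 of the 6 RAHS-14 arrays were tested. The linear model of limma 3.58.1 (R 4.3.3) held 3 group means, which left 6 residual degrees of freedom. The p-values of limma's moderated test were adjusted by Benjamini-Hochberg over all 12211 probe sets. The fit was tested on simulated data. The number of arrays limits the precision.

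The members and lists were chosen with earlier results of these data known. Named in the text or plotted are the 15 most raised and 15 most lowered called probe sets with an informative name and no overlap between groups. Some of the most lowered appear in the plot only. The text also names the 5 most changed each way of all called and the steps of the pathway lists. From most other lists it names some members with the smallest p or that moved the other way, and some lists are given by counts only. A few other members called were named after their values were seen. Names come from annotation in the study's supplementary lists. A name that began with mitochondrion, like placeholder and general terms, was not counted as informative. Plots were made in Python 3.11.15 with matplotlib 3.10.9. Alternatives were other scalings, floors, filters, spread estimates, thresholds, the methods' 2-group test, the replicate number as a block, and each array left out.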

Additional observations from a re-analysis of the deposited data

How the results depend on the processing

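The total of 971 calls stayed within 1.5 times under each alternative run. It was 954 with only the 6 RAHS-14 arrays, 959 with the values as deposited, 968 with arrays aligned at medians, 851 with an offset of 16 in place of the floor, 1218 with no filter on low signals, 929 at an adjusted p under 0.01, and 921 with the methods' 2-group test after Benjamini-Hochberg. Leaving out each array in turn gave 967 to 996 calls, 423 to 447 higher and 539 to 568 lower. With arrays aligned at medians the share of calls that were higher was 39.2%, against 44.2%, and the median difference of all tested probe sets was -0.04. At least 87.6% of the 971 calls were kept in each of the 18 alternatives that refit the values, and the overlap was not counted for the methods' 2-group test. The numbers of the plants do not pair them in the labels. Deviations from the group means correlated at -0.114 to 0.077 in the 9 same-numbered pairs, and the fit with the replicate number as a block called 967.

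For the named and called probe sets, 95 of 101 kept their call in all 18 alternatives that refit the values and none changed direction. Of the 6 that lost it in at least 1, 5 lay close to the 2-fold limit: an asparagine synthase (0.99 to 1.11), AMMONIUM TRANSPORTER 1;1 (-1.15 to -0.82), TRANSPARENT TESTA 5, a chalcone isomerase (0.92 to 1.07), a galactinol-sucrose galactosyltransferase (0.92 to 1.13) and WRKY17 (-1.09 to -0.98). The D2 protein of photosystem II kept its fold (1.05 to 1.35) but not its adjusted p. The count of WRKY factors called lower was 1 with the offset and 5 with no filter, against 3. The cause of these shifts was not tested. The offset, which by construction shrinks differences of low signals, lowered several folds of low signals by over 1.5 times. On the log2 scale the most changed phenylalanine ammonia-lyase went from 2.68 to 2.01 and the bile acid:sodium symporter from -3.18 to -2.44. The AP2 domain factor went from -2.76 to -1.99 and gibberellin 3-beta-dioxygenase from -2.65 to -1.85. Among the most extreme changes, Ghi.585.1.S1_s_at went from 5.44 to 4.49, Ghi.6528.1.S1_at from -8.50 to -7.46 and Ghi.6546.1.S1_s_at from -8.0 to -6.92. Likewise Ghi.6472.1.A1_s_at went from -5.63 to -4.94 and Ghi.482.1.A1_s_at from 6.36 to 5.76.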

Other observations

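The array carries probe sets designed from several cotton species, and all were hybridized here with Gossypium herbaceum RNA. Of 1501 tested probe sets designed from Gossypium raimondii, 80 (5.33%) were called higher and 44 (2.93%) lower. Of 10622 designed from Gossypium hirsutum, 342 (3.22%) were higher and 495 (4.66%) lower. The difference between these shares was not tested.

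By mean level, the 3053 tested probe sets with the lowest signals held 163 called higher and 248 called lower, and the 3053 with the highest signals held 75 and 65. Of the 2 ribosomal RNA probe sets tested, 1 was called higher, with a mean log2 signal of 6.80 under drought, 5.64 with irrigation and 6.63 in irrigated Vagad plants, a difference of 1.16. The other differed by 0.63 and was not called.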
